A study of Mus musculus with 3 samples.

Results

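Mitosis and G2/M genes are the 41 genes of a fixed list whose products carry a cell from late G2 through chromosome segregation and division. Members were matched by symbol, and all 41 were found among the 33696 genes counted. The list was not drawn from levels in these samples, but it and the other lists were chosen with earlier results of these data known. Counts over the lists below therefore describe them and are not independent support. The 41 genes were sorted here into 8 roles, from the cyclins and CDK1 to the proteins of cytokinesis.

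The cells were pmel T cells, TCR transgenic CD8+ T cells that recognize a melanoma antigen, which were given to irradiated mice by adoptive transfer (ACT) and recovered from their B16F10 melanomas by sorting live Thy1.1+CD8+ cells. Tumors were taken on day 18 after tumor injection in a low-dose regimen, and 1 library was made per treatment. In the sIL-2 group, cells were preconditioned with sIL-2 (super IL-2, which binds IL-2Rβ with raised affinity) and mice were given sIL-2. In the IL-2/21-Trikine group (Trikine from here on), cells and mice received the Trikine, in which sIL-2 is fused to an IL-21 variant that binds IL-21Rα without signaling alone. In the sIL-2 + IL-21 group, cells were preconditioned with both cytokines, and by the methods the mice then received the sIL-2 injections only. No library came from mice without cytokine, and the sources used here do not give the number of mice behind each library.

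Entry into mitosis is driven by CDK1 bound to cyclin A or cyclin B. Aurora and Polo-like kinases then build the spindle, the kinetochore joins chromosomes to it, and the spindle checkpoint holds the anaphase-promoting complex (APC/C) until all chromosomes are attached. Most of these genes are transcribed late in the cell cycle and are silent in resting cells, so in a T cell population their RNA marks cells that are cycling. Effector CD8+ T cells divide fast after antigen and IL-2, and cytokines of the common gamma chain family sustain that division.

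The kept cells numbered 7760 with sIL-2, 13299 with Trikine and 9798 with sIL-2 + IL-21. Each library held between 130200802 and 168041089 UMIs, where a UMI marks 1 captured RNA molecule. Cells with fewer than 2000 UMIs were 13.3% of the Trikine library and 3.43% and 3.72% of the sIL-2 and sIL-2 + IL-21 libraries. Of cells thinned to 2000 UMIs, over 99% in each library had a UMI of a T cell identity gene, whereas the myeloid list summed to between 17.5 and 30.04 CPM (UMIs scaled to a library total of 1000000) and the melanoma list to between 2.54 and 9.53 CPM. Hemoglobin and other erythroid genes summed to 68.9 CPM with sIL-2, 0.198 CPM with Trikine and 0.530 CPM with sIL-2 + IL-21, and their part in the results was not tested. Between 18 and 41 barcodes were shared by a pair of libraries, and without them the summed level and the shares of cells below stay within their counting intervals. With 1 library per treatment there are no replicates and no test. Intervals in brackets are at 95% and cover counting error only, so spread between mice is not in them.

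Before the levels, the promoters of 6 members are shown, because late cell cycle genes share known promoter elements. The cell cycle genes homology region (CHR) is bound by the MuvB protein complex, which with p130 and E2F4 forms the repressor DREAM in resting cells and with B-MYB and FOXM1 an activator in G2. NF-Y binds CCAAT boxes, often in tandem, upstream of the CHR. The stretches below are the 120 bases before the annotated start in RefSeq (build GRCm38.p6), written 5′ to 3′ on the strand of the gene, with CHR letters (TTTGAA or TTTAAA on either strand) and NF-Y letters (CCAAT on either strand) in capitals.
Cdk1: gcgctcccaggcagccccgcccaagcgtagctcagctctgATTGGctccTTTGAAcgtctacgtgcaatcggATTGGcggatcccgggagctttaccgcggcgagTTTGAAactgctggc
Ccnb1: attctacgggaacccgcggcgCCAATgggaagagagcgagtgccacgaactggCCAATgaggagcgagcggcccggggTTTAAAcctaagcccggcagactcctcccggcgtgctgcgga
Cdc20: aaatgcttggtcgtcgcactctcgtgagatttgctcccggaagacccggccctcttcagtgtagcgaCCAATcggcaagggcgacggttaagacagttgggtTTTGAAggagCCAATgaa
Ube2c: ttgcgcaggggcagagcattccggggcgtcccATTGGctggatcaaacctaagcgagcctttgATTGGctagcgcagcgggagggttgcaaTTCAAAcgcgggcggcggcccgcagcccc
Top2a: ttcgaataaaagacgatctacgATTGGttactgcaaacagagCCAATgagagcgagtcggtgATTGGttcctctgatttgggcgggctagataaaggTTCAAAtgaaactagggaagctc
Kif11: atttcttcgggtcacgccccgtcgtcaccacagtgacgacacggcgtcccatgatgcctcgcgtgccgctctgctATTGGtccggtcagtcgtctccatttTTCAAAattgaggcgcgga

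These stretches lie at chr10:69352913-69353032 (minus strand) for *Cdk1*, chr13:100786487-100786606 (minus strand) for *Ccnb1*, chr4:118437344-118437463 (minus strand) for *Cdc20*, chr2:164769809-164769928 (plus strand) for *Ube2c*, chr11:99024190-99024309 (minus strand) for *Top2a* and chr19:37376262-37376381 (plus strand) for *Kif11*. They were chosen to show members of several roles whose letters lie before the start, so they do not stand for all members. In the *Ccnb1* stretch, NF-Y letters began 99 and 67 bases before the start and CHR letters 42 bases before it. *Top2a* carried NF-Y letters 98, 78 and 58 bases before the start and CHR letters 23 bases before it.

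RefSeq windows from 250 bases before to 50 after the start were at hand for 35 of the 41 members, in 38 windows. *Aurkb*, *Ccna2*, *Cdc25c*, *Kif20a*, *Pbk* and *Tpx2* had none. CHR letters were in 86.8% of the members' windows, against 27.6% of the 32851 windows of all genes, 60.5% of windows of other G2/M genes and 24.2% of windows of DNA replication genes. NF-Y letters were in 78.9%, 37.4%, 67.4% and 54.5% in the same order, and both motifs were in 76.3%, 10.7%, 46.5% and 15.2%. The letters of these motifs can share 1 base at their ends.

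DNA replication genes differed in the E2F letters searched (TTTCCCGC, TTTGGCGC, TTTCGCGC and TTTGCCGC, either strand), which were in 36.4% of their windows. These letters were in 2.63% of the members' windows, 11.6% of windows of other G2/M genes and 2.26% of all windows. The members' CHR letters lay close to the start, with 34.2% of windows holding a match that began in the first 25 bases after it, against 1.99% of all windows. Windows of *Nuf2*, *Knstrn*, *Nusap1* and *Tacc3* held neither CHR nor NF-Y letters. These counts describe letters and not binding, which was not measured here.

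**Figure D1:**
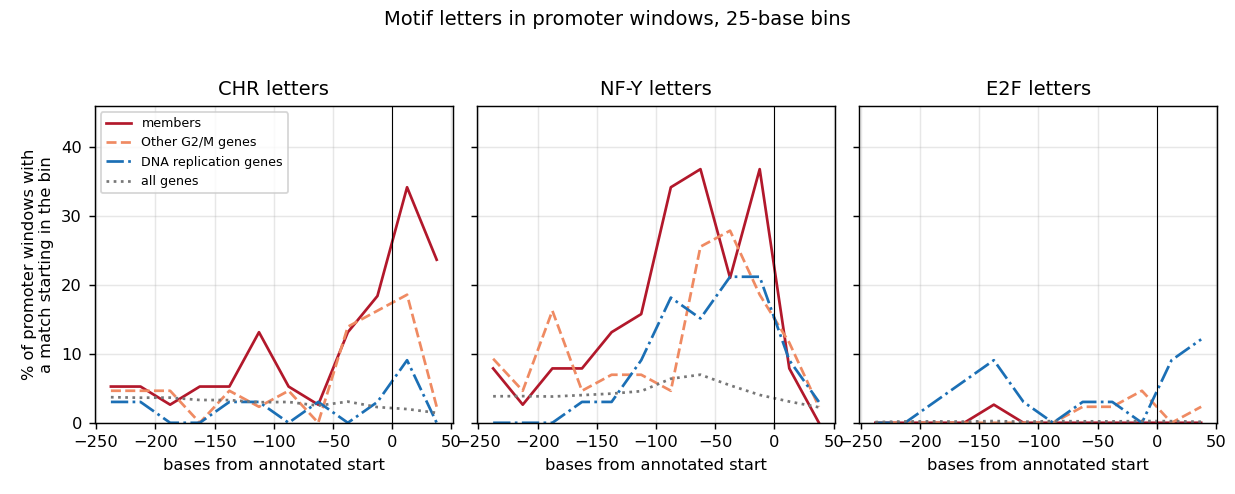
Share of promoter windows (%, vertical axis) with a motif match beginning in each 25-base bin, against the distance in bases from the annotated start, for members, other G2/M genes, DNA replication genes and all genes. In members, CHR letters reach 34.2% in the bin after the start and NF-Y letters 36.8% in a bin before it, while E2F letters stay near 0.

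The summed level of the 41 genes was lowest with sIL-2 and highest with sIL-2 + IL-21. The members took 1815 CPM with sIL-2, 2491 CPM with Trikine and 2909 CPM with sIL-2 + IL-21. The log2 ratio of the summed level was 0.46 [0.45, 0.46] for Trikine over sIL-2, 0.68 [0.67, 0.69] for sIL-2 + IL-21 over sIL-2 and 0.22 [0.22, 0.23] for sIL-2 + IL-21 over Trikine. The first 2 ratios share the sIL-2 library. Levels summed over cells do not tell more cycling cells from more of this RNA per cycling cell, and neither do the scores below, which are made of the same UMIs.

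All 41 members passed the filter of a mean of 1 CPM, as did 11275 genes in all. With a log2 ratio of 0.5 as the limit, 17 of 41 members were higher with Trikine than with sIL-2, where 3.45% of all genes tested were. With sIL-2 + IL-21 over sIL-2, 36 of 41 were higher, against 7.29% of all genes. Between sIL-2 + IL-21 and Trikine, 4 of 41 were higher with sIL-2 + IL-21, against 5.66% of all genes, which is a share near the background. No member was lower by that limit in any comparison, where 7.42%, 11.3% and 4.65% of all genes were.

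Median log2 ratios of the members were 0.46, 0.66 and 0.21 in that order, beside medians of -0.08, -0.08 and 0.00 over all genes tested. With each cell weighted equally, so that cells rich in RNA count no more than others, the counts of higher members became 36, 39 and 7, where 6.52%, 8.40% and 5.73% of all genes were higher. The count for sIL-2 + IL-21 over Trikine thus depends on this weighting. In 35 members the level rose in the order sIL-2, Trikine, sIL-2 + IL-21. *Ttk*, *Pbk*, *Nusap1*, *Kif11* and *Top2a* were instead highest with Trikine, and *Gtse1* was lowest there.

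**Figure D2:**
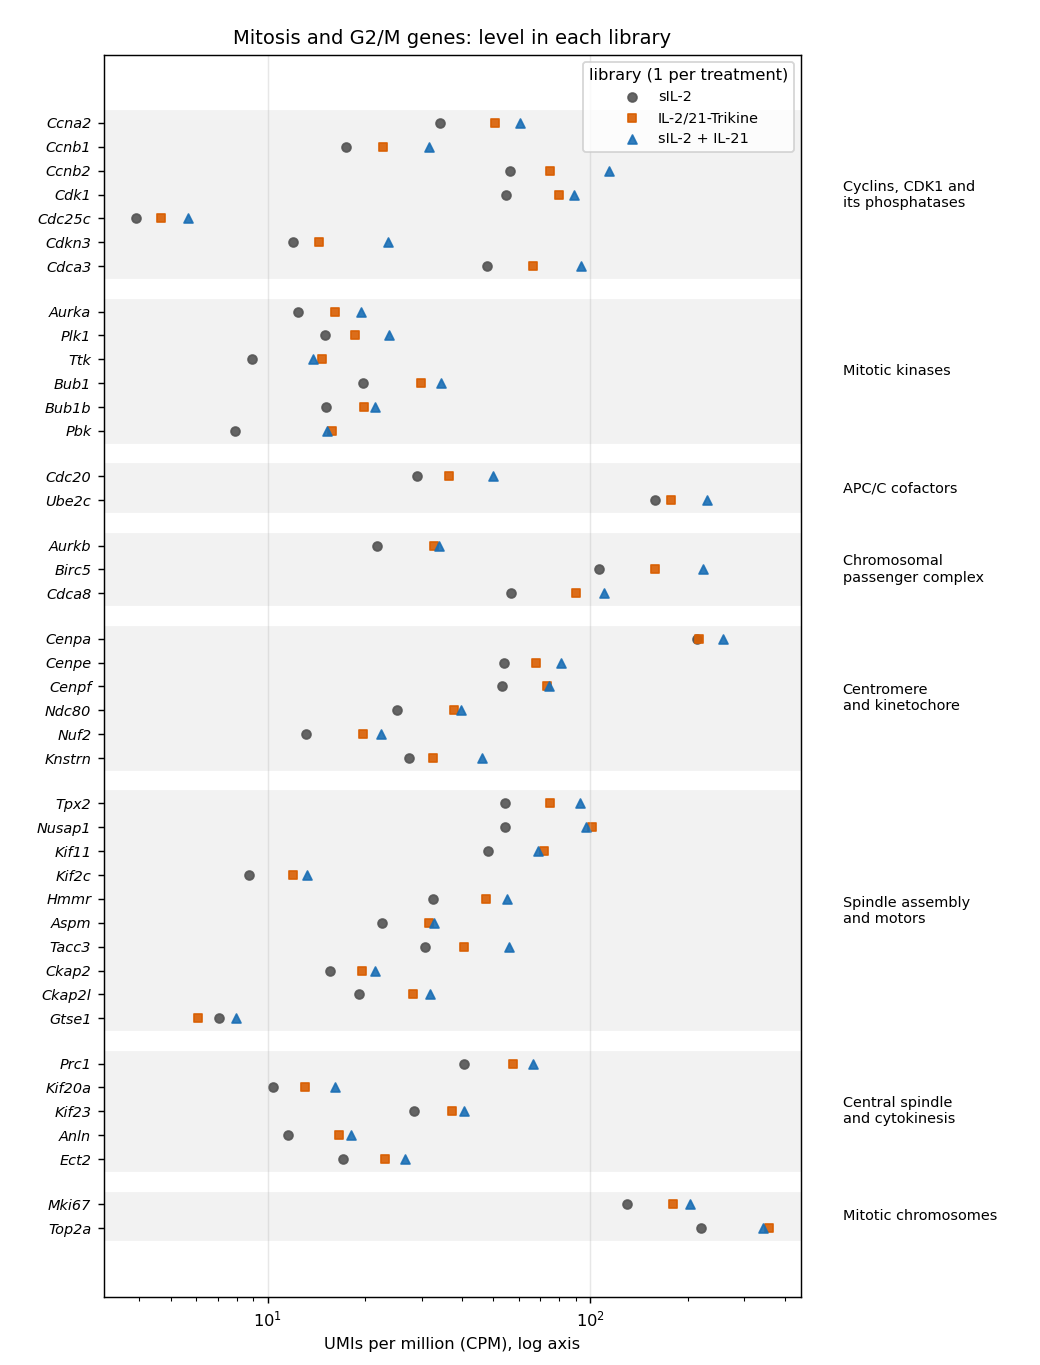
Level of each member in CPM (horizontal log axis) in the sIL-2 (circles), Trikine (squares) and sIL-2 + IL-21 (triangles) libraries, grouped by role. Circles lie to the left in all members but *Gtse1*, and triangles lie to the right in all but the 5 that were highest with Trikine.

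Cyclins, CDK1 and regulators of CDK1 summed to 226 CPM with sIL-2, 313 CPM with Trikine and 418 CPM with sIL-2 + IL-21. *Ccnb2*, a B-type cyclin, was at 56.4, 74.8 and 114 CPM in the same order. *Ccnb1*, the other mitotic B-type cyclin, was at 17.4, 22.7 and 31.6 CPM. *Cdk1*, the kinase they activate, was at 54.5, 79.7 and 89.1 CPM. Both cyclins thus rose at each step of this order, and *Cdk1* mostly at the first.

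All 7 genes of this role were higher with sIL-2 + IL-21 than with sIL-2, and *Ccna2* (log2 ratio 0.57 [0.51, 0.62]) and *Cdk1* (0.55 [0.51, 0.59]) also with Trikine. Of all genes tested, 7.29% were higher with sIL-2 + IL-21 and 3.45% with Trikine, each over sIL-2. This role held 3 of the 4 members that were higher with sIL-2 + IL-21 than with Trikine. They were *Cdkn3*, a phosphatase that acts on CDKs, with a log2 ratio of 0.71 [0.63, 0.78], *Ccnb2* with 0.61 [0.58, 0.64], and *Cdca3*, a trigger of mitotic entry, with 0.50 [0.46, 0.54], just at the limit. Without the barcodes shared between libraries, 3 members were past it. *Cdc25c*, the phosphatase that activates CDK1, had the fewest UMIs of the role in each library, at 3.89, 4.67 and 5.68 CPM, and its ratios carried the widest intervals.

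Among the mitotic kinases, *Pbk* was at 7.93 CPM with sIL-2, 15.8 CPM with Trikine and 15.3 CPM with sIL-2 + IL-21. Its log2 ratio over sIL-2 with Trikine, 0.99 [0.89, 1.10], was the highest of the 41 members. *Ttk*, a kinase of the spindle checkpoint, was at 8.92, 14.8 and 13.8 CPM. In both genes the cytokine libraries beyond sIL-2 lay close together. *Bub1*, another checkpoint kinase, was at 19.7, 29.9 and 34.5 CPM, and *Bub1b* at 15.2, 19.9 and 21.4 CPM. *Plk1* and *Aurka*, which act on spindle poles and mitotic entry, were below the limit with Trikine (0.30 and 0.39) and above it with sIL-2 + IL-21 (0.66 and 0.65).

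The APC/C cofactors showed the same split. *Cdc20*, which activates the APC/C at anaphase, was at 29.0, 36.3 and 49.99 CPM with sIL-2, Trikine and sIL-2 + IL-21. *Ube2c*, its ubiquitin-conjugating enzyme, was at 159, 178 and 230 CPM. For *Ube2c* the log2 ratio of Trikine over sIL-2 was 0.17 [0.14, 0.19] and that of sIL-2 + IL-21 over sIL-2 was 0.54 [0.51, 0.56]. Both genes thus differed more between sIL-2 + IL-21 and Trikine (0.46 and 0.37) than between Trikine and sIL-2 (0.32 and 0.17).

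The chromosomal passenger complex, which corrects attachments at the centromere, was the role in which all genes were higher in both comparisons with sIL-2. Of all genes tested, 3.45% were higher with Trikine and 7.29% with sIL-2 + IL-21. *Birc5* (survivin) was at 106 CPM with sIL-2, 159 CPM with Trikine and 224 CPM with sIL-2 + IL-21, and its log2 ratio of 1.07 [1.04, 1.10] for sIL-2 + IL-21 over sIL-2 was the highest of the members. It and *Ccnb2* (1.02) were the 2 members past a log2 ratio of 1, a limit passed upward by 1.34% and downward by 2.04% of all genes in that comparison. No member passed it in the other comparisons, where 0.328% of genes were higher and 1.38% lower for Trikine over sIL-2 and 1.92% higher and 1.03% lower for sIL-2 + IL-21 over Trikine. *Cdca8* (borealin) was at 56.7, 89.9 and 110 CPM. *Aurkb*, the kinase of the complex, was at 21.8, 32.7 and 33.9 CPM, so that its Trikine and sIL-2 + IL-21 levels differed by no more than counting error (0.05 [-0.00, 0.10]).

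Centromere and kinetochore genes summed to 387, 448 and 522 CPM with the 3 treatments in that order, a log2 ratio over sIL-2 of 0.21 for Trikine and 0.43 for sIL-2 + IL-21. *Cenpa*, the histone variant that marks centromeres, was at 215, 217 and 258 CPM, and its Trikine level did not differ from that with sIL-2 beyond counting error (0.02 [-0.01, 0.04]). *Ndc80* and *Nuf2*, subunits of the complex that binds microtubules, were at 25.1, 37.8 and 39.7 CPM and at 13.1, 19.7 and 22.4 CPM. *Knstrn*, a kinetochore and spindle protein, was at 27.5, 32.5 and 46.2 CPM and was the fourth member that was higher with sIL-2 + IL-21 than with Trikine (0.51 [0.46, 0.56]). Of all genes tested, 5.66% were higher in that comparison. The role thus held members that moved mostly with Trikine and others that moved mostly with sIL-2 + IL-21.

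Of the 10 spindle assembly and motor genes, 4 were higher with Trikine and 8 with sIL-2 + IL-21, each over sIL-2. Of all genes tested, 3.45% and 7.29% were. *Nusap1*, a microtubule-bundling protein, was at 54.2 CPM with sIL-2, 101 CPM with Trikine and 97.0 CPM with sIL-2 + IL-21. *Kif11*, the motor that separates spindle poles, was at 48.0, 71.6 and 68.6 CPM. *Tacc3*, which stabilizes spindle microtubules, was at 30.6, 40.5 and 55.8 CPM and so lay apart from them. *Gtse1* was at 7.04, 6.07 and 7.96 CPM, and was the member whose ratio of Trikine over sIL-2 lay below 0, at -0.21 [-0.35, -0.08].

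The 5 genes of the central spindle and cytokinesis summed to 108, 147 and 168 CPM, and their log2 ratios spanned 0.33 (*Kif20a*) to 0.53 (*Anln*) for Trikine over sIL-2 and 0.51 (*Kif23*) to 0.72 (*Prc1*) for sIL-2 + IL-21 over sIL-2. *Prc1*, which bundles the central spindle, was at 40.5, 57.4 and 66.6 CPM.

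*Mki67* and *Top2a*, which coat and disentangle mitotic chromosomes and are common markers of dividing cells, did not follow the same order. *Mki67* was at 130 CPM with sIL-2, 181 CPM with Trikine and 204 CPM with sIL-2 + IL-21. *Top2a* was at 219, 358 and 344 CPM. The ratio of sIL-2 + IL-21 over Trikine was therefore 0.17 [0.15, 0.20] for *Mki67* and -0.06 [-0.07, -0.04] for *Top2a*.

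Next, the members were scored in each cell. Each cell was thinned to 2000 UMIs so that deep and shallow cells could be compared, and the score was the number of the 2000 that came from members. A cell with a score of at least 10 is called high-score here, which is a range of a score and not a cell type. High-score cells were 579 of 7494 with sIL-2 (7.73% [7.13, 8.35]), 1441 of 11524 with Trikine (12.5% [11.9, 13.1]) and 1511 of 9434 with sIL-2 + IL-21 (16.02% [15.3, 16.8]). The ratio of shares was 1.62 [1.48, 1.77] for Trikine over sIL-2, 2.07 [1.89, 2.27] for sIL-2 + IL-21 over sIL-2 and 1.28 [1.20, 1.37] for sIL-2 + IL-21 over Trikine.

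Between sIL-2 + IL-21 and Trikine, the shares differed at a score of 0 and in the middle of the score range, and little at scores of 20 or more. Scores of 5 to 9 were held by 4.04% of cells with sIL-2, 7.56% with Trikine and 13.0% with sIL-2 + IL-21. Scores of 20 or more were held by 2.59%, 4.04% and 4.35%, and at that limit the ratio of sIL-2 + IL-21 over Trikine was 1.08 [0.946, 1.23], within counting error of no difference. At 40 or more the order was another, with 0.0801%, 0.130% and 0.0318%, but these were 6, 15 and 3 cells. A score of 0 was found in 47.5%, 41.8% and 30.1% of cells. Between 181 and 705 cells per library had a score from 8 to 11, near the limit. Without thinning, 26.6%, 29.0% and 47.9% of all kept cells had at least 10 member UMIs.

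**Figure D3:**
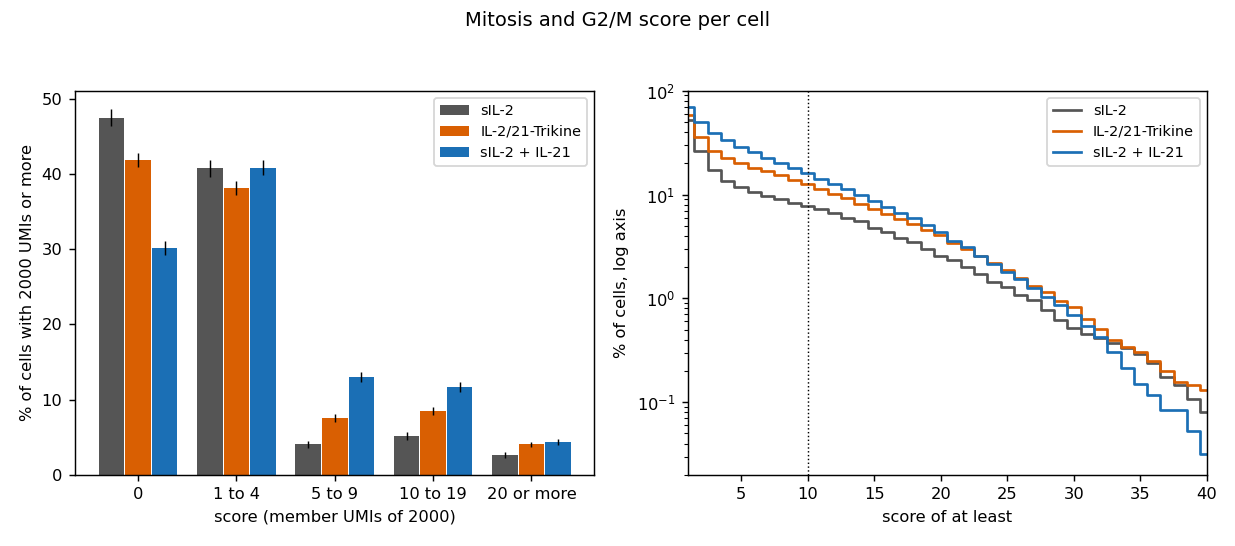
Left, share of cells (%) in each range of the score (member UMIs of 2000) for the sIL-2, Trikine and sIL-2 + IL-21 libraries, with exact binomial intervals at 95% as bars. Right, share of cells (%, log axis) with at least the score on the horizontal axis, where the dotted line marks the limit of 10. The libraries stand there at 7.73%, 12.5% and 16.02%. The Trikine and sIL-2 + IL-21 lines are close at 20 (4.04% and 4.35%), and at 40 Trikine is the higher (0.130% and 0.0318%).

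Of the member UMIs in cells with at least 2000 UMIs, high-score cells held 65.6% with sIL-2, 66.2% with Trikine and 60.7% with sIL-2 + IL-21. They were deeper than the other cells, with median UMI numbers of 29998, 21694 and 23575 against 12626, 10704 and 13043, and held 14.2%, 20.1% and 23.2% of all UMIs of cells with at least 2000. Their median mitochondrial share was 1.41%, 1.44% and 1.42%, against 1.26%, 1.30% and 1.33%. The mean score of the other cells was 0.976, 1.31 and 1.95, so the same order held below the limit. The part of free RNA in those low scores was not tested. Of the barcodes rich in myeloid or melanoma markers, 1 was high-score in the 3 libraries together, and Scrublet marked 0 to 9 cells per library as doublets, too few to be of use.

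To describe each member within high-score cells, it was set apart and cells were scored by the other 40. Cells passed the same limit on members that vary together in every library, so like levels are in part set by this choice and do not show that RNA per cycling cell was alike. The median log2 ratio of the 41 members was -0.07 for Trikine over sIL-2, -0.16 for sIL-2 + IL-21 over sIL-2 and -0.09 for sIL-2 + IL-21 over Trikine. No member was past 0.5 upward in any of the 3 comparisons, and *Gtse1* was past it downward with Trikine over sIL-2 (-0.65). Counting intervals lay below 0 for 22, 30 and 24 of the 41 members and above 0 for 4, 1 and 6, in the same order. The share of all genes past 0.5 within these cells was not computed, so these counts stand without a background. *Cdk1* in high-score cells was at 262 CPM with sIL-2, 255 CPM with Trikine and 235 CPM with sIL-2 + IL-21, and *Birc5* was at 532, 538 and 570 CPM. *Nusap1* (0.30), *Pbk* (0.34) and *Top2a* (0.21) had ratios above 0 for Trikine over sIL-2, below those over all cells. Depth differs between these cells as given above, and its part in these ratios was not tested.

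**Figure D4:**
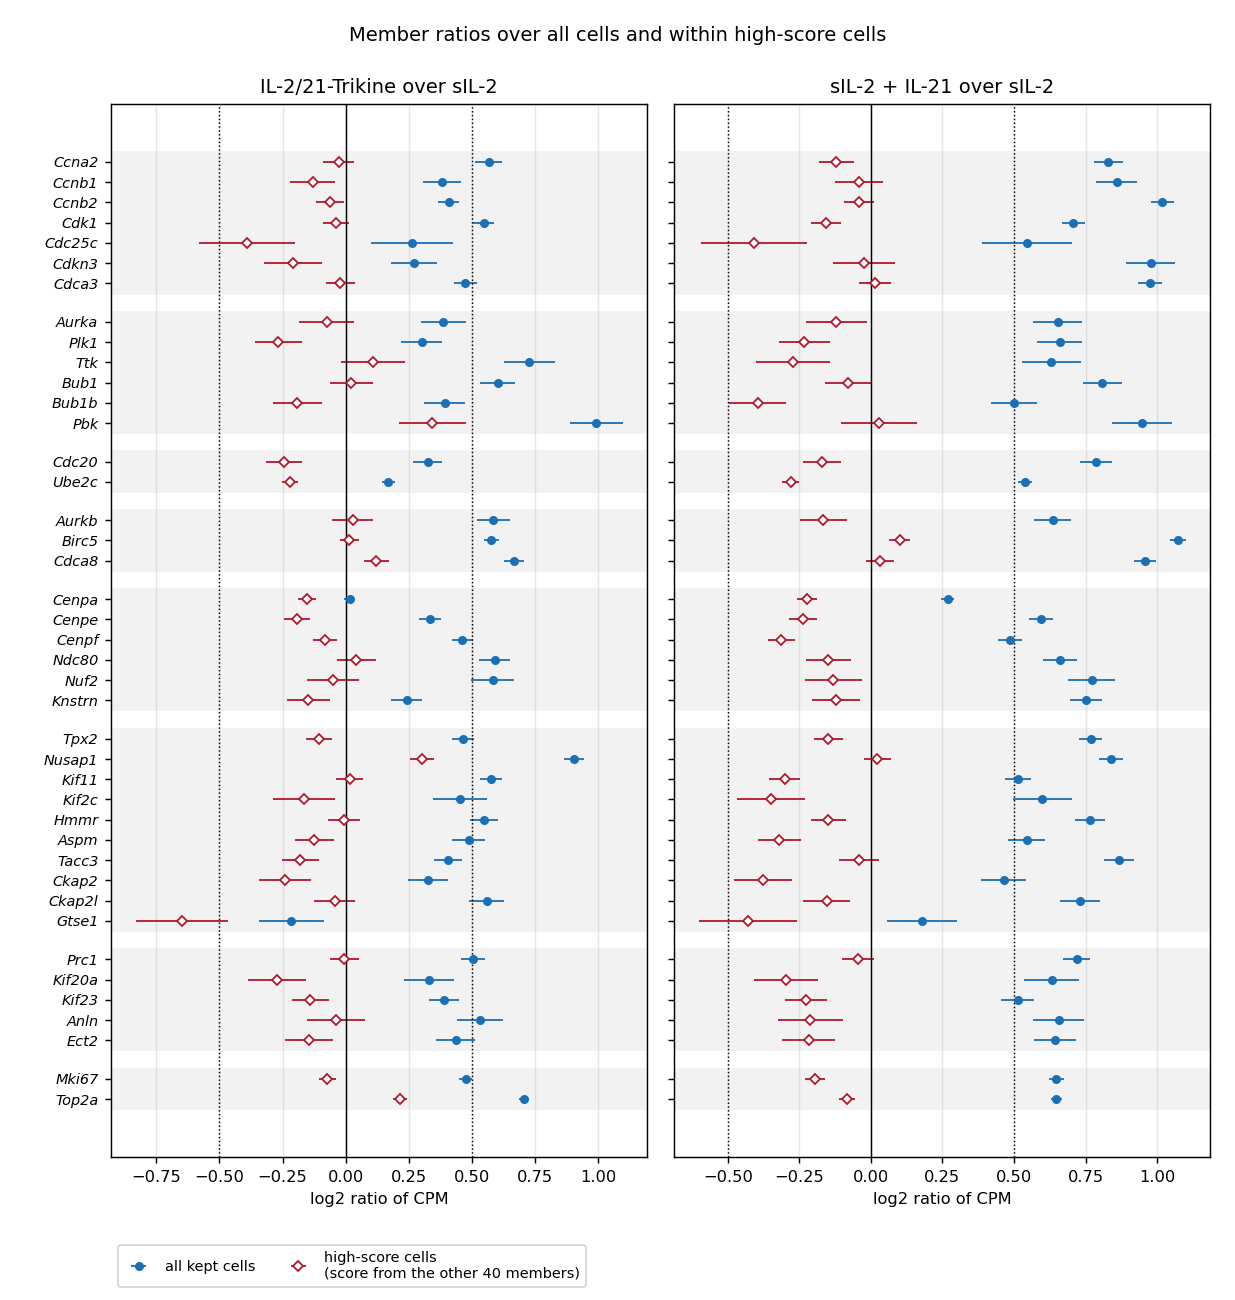
Log2 ratio of CPM over sIL-2 (horizontal axis) of each member for Trikine (left) and sIL-2 + IL-21 (right), over all kept cells (filled circles) and within high-score cells by the other 40 members (open diamonds), with counting intervals at 95% and dotted lines at the limit of 0.5. Medians are 0.46 and 0.66 over all cells and -0.07 and -0.16 within high-score cells.

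Members differed in how far they were held by high-score cells. Scored by the other 40, these cells held a median of 67.1% of a member's UMIs with sIL-2, 65.1% with Trikine and 60.9% with sIL-2 + IL-21. *Cenpf*, a kinetochore protein made in G2, had the highest shares, 84.3%, 80.8% and 78.6%. *Cenpa* had the lowest, 35.3%, 45.1% and 40.5%, and stood in the other cells at 160, 147 and 195 CPM. *Cenpa* was therefore also the least enriched member, by 1.86, 1.82 and 1.35 on the log2 scale, where *Cenpf* was enriched by 5.04, 4.11 and 3.63. The median enrichment was 3.69, 2.91 and 2.41.

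Cells in mitosis have passed through S phase, and the DNA replication list of 35 genes, which shares no gene with the members, was scored in the same 2000 UMIs. At least 5 UMIs of that list were found in 61.8% [57.7, 65.8] of high-score cells with sIL-2, 70.8% [68.4, 73.1] with Trikine and 70.5% [68.2, 72.8] with sIL-2 + IL-21. Conversely, 40.96%, 36.2% and 37.0% of replication-high cells were high-score. Replication-high cells were 11.7% [10.9, 12.4], 24.4% [23.6, 25.2] and 30.6% [29.6, 31.5] of all cells. The share of replication-high cells was highest at scores from 10 to 19, at 64.2%, 78.1% and 73.9%, and was 57.2%, 55.5% and 61.5% at scores of 20 or more.

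Other cell cycle lists were compared over all cells with the same limit. Of 49 other G2/M genes, 17 were higher and 1 lower with Trikine, and 32 were higher and 1 lower with sIL-2 + IL-21, each over sIL-2. Over all genes tested, 3.45% were higher and 7.42% lower with Trikine, and 7.29% higher and 11.3% lower with sIL-2 + IL-21. *Psrc1*, a spindle protein, was the lower gene in both, at 25.2, 14.7 and 14.4 CPM with sIL-2, Trikine and sIL-2 + IL-21. *Cks1b*, a CDK subunit, was at 104, 161 and 206 CPM and had the highest ratio of that list for sIL-2 + IL-21 over sIL-2 (0.98 [0.96, 1.01]). Further genes named by rule were *Spc24* (0.93), *Melk* (0.92), *Kif15* (-0.23) and *Cdc25b* (-0.28).

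DNA replication genes were higher in 29 of 35 with Trikine and 30 of 35 with sIL-2 + IL-21, against 3.45% and 7.29% of all genes. Their medians were 0.71 and 0.84 and none was lower. *Cdc6*, which loads the replicative helicase, was at 10.7, 20.6 and 24.9 CPM with sIL-2, Trikine and sIL-2 + IL-21. *Rrm2*, a subunit of ribonucleotide reductase, was at 50.9, 87.4 and 105 CPM, and *Uhrf1*, which keeps DNA methylation through replication, was at 28.6, 48.6 and 60.3 CPM. The smallest ratios of the list for sIL-2 + IL-21 over sIL-2 were those of *Slbp* (0.33), *Mcm6* (0.26) and *Cdt1* (0.17). With sIL-2 + IL-21 over Trikine, 0 of the 49 other G2/M genes and 0 of the 35 replication genes were past the limit. Of all genes, 5.66% were higher and 4.65% lower there. Lists of this size hold few genes at such shares, so these counts are near the background.

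Of 21 transcriptional regulators of G2/M, 5 were higher with Trikine and 6 with sIL-2 + IL-21, against 3.45% and 7.29% of all genes. *Mybl2* (B-MYB) was at 4.33, 6.90 and 8.53 CPM with sIL-2, Trikine and sIL-2 + IL-21. *Foxm1* was at 5.91, 8.12 and 9.18 CPM. *E2f8* and *E2f1* were also among the highest, with log2 ratios of 0.97 and 0.83 for sIL-2 + IL-21 over sIL-2. *Nfya*, a subunit of NF-Y (-0.13), *Lin52*, a MuvB subunit (-0.19), and *Rb1*, the retinoblastoma protein (-0.26), had the lowest ratios, none past the limit.

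Restraints on CDK and the APC/C went in both directions, with 12 of 13 genes tested. With Trikine, 2 were higher and 3 lower, against 3.45% and 7.42% of all genes. With sIL-2 + IL-21, 2 were higher and 5 lower, against 7.29% and 11.3%, each over sIL-2. *Cdkn1a*, the CDK inhibitor induced by p53, was at 484 CPM with sIL-2, 207 CPM with Trikine and 274 CPM with sIL-2 + IL-21, and *Cdkn1b*, another CDK inhibitor, was at 109, 87.5 and 70.5 CPM. *Trp53inp1*, also induced by p53, was at 62.4, 34.7 and 27.9 CPM, and *Btg1*, an antiproliferative factor, was at 777, 743 and 474 CPM. *Fbxo5* (EMI1), which inhibits the APC/C during S and G2, was at 21.2, 39.3 and 37.1 CPM. *Wee1* and *Pkmyt1*, kinases that inhibit CDK1 until mitosis, had ratios of 0.50 and 0.44 for sIL-2 + IL-21 over sIL-2.

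High-score cells were then compared with the other cells of the same library. Among 11234 other genes with a mean of at least 1 CPM over the libraries, 6.5% were past a log2 ratio of 0.5 upward in all 3 libraries, 3.34% were past -0.5 downward and 37.0% were below 0 in all 3. Of the other G2/M genes 47 of 49 were past 0.5 in all 3 libraries, and of the replication genes 28 of 35. Among the 5307 genes outside the members with at least 20 CPM in high-score cells of each library, *Prr11*, *Kif14*, *Pimreg*, *Mxd3*, *Arhgap19*, *H2ac10*, *Sgo2a*, *Parpbp* and *Kif22* were among the genes with the highest ratios by their lowest value over the 3 libraries. The limit of 20 CPM was set in high-score cells only, so genes low in the other cells passed it through high-score cells alone. This ranking thus favors high ratios and is a description, not support. *Kif14*, a motor of cytokinesis, was at 36.0, 33.0 and 27.3 CPM in high-score cells and at 1.39, 3.22 and 3.38 CPM in the others. *Sgo2a*, a shugoshin that guards centromeric cohesion, was at 78.4, 69.6 and 67.4 CPM against 4.32, 7.97 and 10.4 CPM.

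Of the 10 genes with the lowest ratios among these 5307, 5 were of the list of cytokines and chemokines. That limit leaves out genes that are low in high-score cells, *Il3* and *Ifit3* below among them. The 10 were *Ccl5*, *Ccl3*, *Ccl4*, *Xcl1*, *Ifng*, *Ccl1*, *Vsir*, *Lilrb4b*, *Crtam* and *Ccnd2*. *Ccl5*, a chemokine of effector T cells, was at 630 CPM in high-score cells and 2550 CPM in the others with sIL-2, at 260 and 1111 CPM with Trikine, and at 219 and 1100 CPM with sIL-2 + IL-21. *Ccnd2*, the cyclin that acts in G1, was at 195 against 485 CPM, 217 against 448 CPM and 221 against 411 CPM. Cells were chosen by the members, which none of these genes is, and direction is given as the number of libraries that show it.

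Cytokine and chemokine genes were the state list that differed most. The list of 9 was lower in high-score cells by a log2 ratio of -1.52 [-1.53, -1.51] with sIL-2, -1.55 [-1.56, -1.55] with Trikine and -1.42 [-1.43, -1.41] with sIL-2 + IL-21. All 9 genes were lower in 3 of 3 libraries, 8 of them past -0.5 in each, where 3.34% of all genes were, and *Csf2* (-0.87, -0.21 and -0.35) was the exception. *Il2* (-2.27, -1.38 and -4.12) and *Il3* (-2.20, -2.49 and -2.21) had the lowest ratios and *Tnf* (-0.81, -1.05 and -0.56) a smaller one. *Ifng*, an effector cytokine, was at 349 CPM in high-score cells against 963 CPM in the others with sIL-2, at 216 against 723 CPM with Trikine and at 335 against 766 CPM with sIL-2 + IL-21.

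The mean of this list was lower at high scores than at a score of 0 in each library. In cells with a score of 0, a mean of 27.2 of 2000 UMIs came from the cytokine and chemokine list with sIL-2, 26.9 with Trikine and 32.2 with sIL-2 + IL-21. At scores of 20 or more the means were 4.84, 5.34 and 4.36. The share of cells with any UMI of the list differed less, at 82.2%, 86.2% and 85.0% for a score of 0 and 75.3%, 89.0% and 84.1% for 20 or more, and was not lower with Trikine. Median UMI numbers of the list were 2, 3 and 3 in high-score cells and 3, 4 and 3 in the others, closer together than the means. The myeloid list, whose cells also make chemokines, was at 2.55, 2.68 and 5.96 CPM in high-score cells and 33.6, 33.1 and 21.1 CPM in the others, and the erythroid list with sIL-2 at 1.30 against 80.3 CPM. Their part in the result was not tested, nor was that of the UMI numbers given above.

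**Figure D5:**
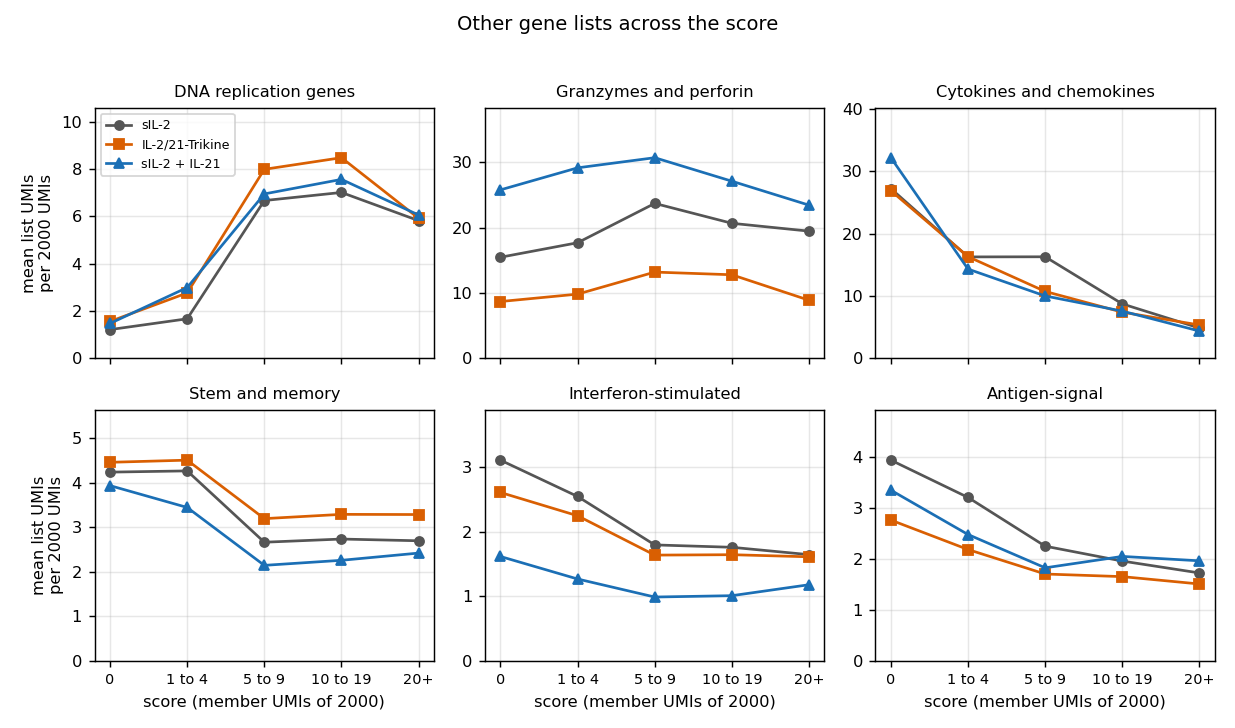
Mean UMIs of 6 gene lists per 2000 UMIs of a cell (vertical axes, from 0) across ranges of the score (horizontal axis) in the sIL-2, Trikine and sIL-2 + IL-21 libraries. Cytokine and chemokine UMIs fall from 27.2, 26.9 and 32.2 at a score of 0 to 4.84, 5.34 and 4.36 at 20 or more, and replication UMIs are highest at 10 to 19.

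Granzymes and perforin, the cytotoxic granule genes, did not follow the cytokines. The list was at 11267 CPM in high-score cells and 11082 CPM in the others with sIL-2, at 6487 and 6018 CPM with Trikine, and at 15025 and 17470 CPM with sIL-2 + IL-21. The log2 ratios were 0.02 [0.02, 0.03], 0.11 [0.10, 0.12] and -0.22 [-0.22, -0.21]. No gene of the 9 was past 0.5 in either direction in all 3 libraries. Of all genes, 6.5% were past it upward and 3.34% downward, so this count is near the background. *Gzmc* was the highest (0.55, 0.49 and 0.04), followed by *Gzmf* (0.12, -0.06 and -0.60), and *Prf1* (-0.40, -0.27 and -0.60) and *Gzmg* (-0.39, -2.20 and -1.39) were the lowest. Per cell, in the same 2000 UMIs, the median of the list was 15 in high-score cells against 9 in the others with sIL-2, 7 against 5 with Trikine and 20 against 20 with sIL-2 + IL-21. The means were 20.3 against 16.8, 11.5 against 9.57 and 26.1 against 28.2. The median ratio of the 9 genes was -0.06, -0.16 and -0.31, so with sIL-2 and Trikine it differs in sign from the list total.

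Stem and memory genes were lower in high-score cells, by -0.57 [-0.59, -0.55] with sIL-2, -0.34 [-0.36, -0.33] with Trikine and -0.39 [-0.40, -0.37] with sIL-2 + IL-21. Of the 12 genes, 10 were lower in 3 of 3 libraries, where 37.0% of all genes and all 7 T cell identity genes were, and 1 gene, *S1pr1*, which directs exit from tissue, was past -0.5 in each (-0.67, -0.56 and -0.64). That limit was passed downward in each library by 3.34% of all genes. *Ccr7*, the lymph node homing receptor, was at 183 CPM in high-score cells against 312 CPM in the others with sIL-2, 370 against 486 CPM with Trikine and 178 against 261 CPM with sIL-2 + IL-21. *Ccr7* was therefore higher in high-score cells with Trikine than in the other cells with either other treatment. *Klf2* (0.03, 0.13 and -0.11) differed in direction between libraries.

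Genes of T cell receptor signaling and of the interferon response were lower too. The antigen-signal list had ratios of -0.72, -0.53 and -0.29, with all 8 genes below 0 in 3 of 3 libraries, as were the T cell identity genes. *Egr2* (-1.004, -0.86 and -0.73) and *Egr3* (-0.94, -1.15 and -0.90), early targets of the receptor, were past -0.5 in each, while *Nr4a2* (-0.59, -0.37 and -0.25) and *Fosb* (-0.48, -0.21 and -0.04) were not. Interferon-stimulated genes had list ratios of -0.62, -0.40 and -0.20, with 11 of 12 below 0 in 3 of 3 libraries and 4 past -0.5 in each. Of all genes, 37.0% were below 0 in 3 of 3 libraries and 3.34% were past -0.5 in each. *Ifit3* (-1.79, -1.60 and -1.66) and *Ifit1* (-1.90, -1.38 and -1.15) were the lowest, and *Ifit2* (-0.82, -0.12 and -0.05) was among those with the smallest differences.

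Inhibitory and terminal genes differed by -0.23, -0.10 and -0.17, and no gene of the 9 was past 0.5 in all 3 libraries. That count is near the background, where 6.5% of all genes were past it upward and 3.34% downward. *Tox* (0.26, 0.38 and 0.19) and *Pdcd1* (0.16, 0.27 and -0.03) were the highest and *Cd101* (-0.51, -0.33 and -0.22) and *Lag3* (-0.60, -0.18 and -0.37) the lowest. Cytokine receptors and STAT feedback genes differed by -0.32, -0.19 and -0.10. *Il2rb*, the receptor chain that sIL-2 binds, was at 466 CPM in high-score cells and 502 CPM in the others with sIL-2, at 333 and 325 CPM with Trikine, and at 415 and 400 CPM with sIL-2 + IL-21. Its ratios (-0.11, 0.03 and 0.05) were near 0. *Socs1* (0.20, 0.01 and 0.19) was above 0 in each library, with Trikine by no more than counting error. *Il2ra* (-0.56, -0.32 and -0.18) and *Il2rg* (-0.53, -0.37 and -0.32) were lower in each. The T cell identity list itself differed by -0.24, -0.17 and -0.16, about as much as the smaller of these values.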

How the data were processed

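Single-cell RNA-seq (10x Genomics 3′ chemistry) was made from 3 samples. The authors deposited Cell Ranger matrices of UMI counts, neither normalized nor filtered further, with intronic reads included. The methods name a GRCm39 reference and the submitters' processing notes mm10, so no coordinates were taken from the counts.

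Cells with 500 to 120000 UMIs and at most 20% mitochondrial UMIs were kept. Levels are UMIs summed over kept cells and scaled to a library total of 1000000 (CPM). Genes with a mean of at least 1 CPM over the libraries were compared, with a log2 ratio of 0.5 as the limit. Scores used cells thinned to 2000 UMIs with a fixed seed, which left out 266, 1775 and 364 shallower cells (sIL-2, Trikine, sIL-2 + IL-21). Ratios carry exact conditional binomial intervals, levels Poisson and shares Clopper-Pearson intervals, and ratios of shares log-normal intervals. Scrublet (in scanpy 1.11.5) was run per library, but marked under 0.5% of cells, so leaving out the highest 5% of scores was an alternative. Barcodes were called rich in myeloid or melanoma markers at 0.5% of UMIs.

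The members and lists were chosen with earlier results of these data known. Named were all members, for each cell cycle list the 3 highest and 3 lowest ratios of sIL-2 + IL-21 over sIL-2 with *Foxm1*, *Mybl2*, *Cdkn1a* and *Cdkn1b*, for each state list the 2 highest and 2 lowest median ratios of high-score over other cells, and among genes with at least 20 CPM in high-score cells the 10 highest and 10 lowest. The genes of the closing observations were chosen after their values were seen. Some genes that this rule names are not reported here. Alternatives covered scaling (edgeR 4.0.16, DESeq2 1.42.0 size factors), cell limits, gene filters and score limits. Steps were tested on simulated data. Python 3.11.15 and R 4.3.3 were used.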

Additional observations from a re-analysis of the deposited data

Results flagged for a closer look

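Granzyme and perforin genes in high-score cells, set against the other cells of the same library, differed in direction between libraries. The log2 ratio was 0.0240 with sIL-2, 0.108 with Trikine and -0.218 with sIL-2 + IL-21, each with a counting interval that leaves out 0. The difference between the libraries was not tested, since there is 1 library per treatment. The values with sIL-2 and Trikine are small beside the fold between libraries. *Gzmc* was at 0.55, 0.49 and 0.04 and *Gzmf* at 0.12, -0.06 and -0.60 in the same libraries. In both genes the lowest ratio was that with sIL-2 + IL-21, but in *Gzmg* (-0.39, -2.20 and -1.39) it was that with Trikine. The median ratio of the 9 genes was -0.06, -0.16 and -0.31, so it lay below 0 in each library, unlike the list total.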

How the results depend on the processing

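The summed level, the share of high-score cells and the cytokine list kept their direction in every alternative run, while the granzyme and inhibitory lists changed sign at a score limit of 20. The summed log2 ratio of Trikine over sIL-2 became 0.56 with TMM factors, 0.54 with DESeq2 size factors, 0.66 with cells weighted equally and 0.41 without *Mki67* and *Top2a*. For sIL-2 + IL-21 over sIL-2 these were 0.78, 0.76, 0.92 and 0.69. For sIL-2 + IL-21 over Trikine it was 0.25 with equal weights, 0.21 without the 5% of cells with the highest Scrublet scores and 0.27 without *Mki67* and *Top2a*. Members higher with Trikine than with sIL-2 numbered 26 with TMM (5.61% of all genes), 36 with equal weights (6.52%) and 0 at a log2 ratio of 1 (0.328%). At that limit 2 were higher with sIL-2 + IL-21 over sIL-2 (1.34%) and 0 over Trikine (1.92%), where equal weights gave 7 (5.73%). TMM and DESeq2 factors moved the median of all genes, and relative to that median the members stood at 0.55 and 0.74 over sIL-2 under each scaling.

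High-score ratios at a score of 5 and of 20 were 2.47 and 1.68 for sIL-2 + IL-21 over sIL-2 and 1.45 and 1.08 for sIL-2 + IL-21 over Trikine. Without thinning, at 0.5% of UMIs, they were 1.87 for Trikine over sIL-2 and 1.14 for sIL-2 + IL-21 over Trikine. That alternative used all kept cells, so it also took back the shallower cells, which were most frequent with Trikine. Replication-high shares of high-score cells were 81.3%, 86.3% and 86.4% at 3 UMIs and 24.7%, 31.6% and 27.002% at 10 (sIL-2, Trikine, sIL-2 + IL-21). For state lists, the ratio of the list total was taken as its median over the 3 libraries, not over genes. At scores of 5 and 20 it was -0.60 and -0.25 for stem and memory genes, -0.25 and 0.00198 for inhibitory genes and 0.13 and -0.35 for granzymes. For cytokines it was -1.27 and -1.94, and -1.63 without the highest Scrublet scores. The alternative without shared barcodes was chosen after seeing the data. With 1 library per treatment, treatment, mouse and library cannot be told apart. No paired analysis was possible because no groups share replicates.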

Other observations

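The list of restraints on CDK and the APC/C split in high-score cells. Its summed level was lower there, by -0.56 with sIL-2, -0.27 with Trikine and -0.15 with sIL-2 + IL-21, while the median ratio of the 12 of its 13 genes with a mean of at least 1 CPM was 0.97, 1.01 and 0.78, so total and median differ in sign. The genes below were chosen after their values were seen. *Cdkn2d* and *Cdkn2c*, inhibitors of the G1 kinases CDK4 and CDK6, were higher in high-score cells of all 3 libraries. *Cdkn2d* was at 180, 163 and 169 CPM in high-score cells and at 64.6, 58.3 and 72.6 CPM in the others (sIL-2, Trikine, sIL-2 + IL-21). *Cdkn2c* was at 73.0, 64.4 and 61.5 CPM against 19.3, 20.2 and 26.7 CPM. *Fzr1*, the APC/C activator of late mitosis and G1, had ratios of 1.62, 1.41 and 1.37. *Btg1* (-1.04, -0.72 and -0.73), *Btg2* (-0.89, -0.63 and -0.34) and *Cdkn1a* (-0.72, -0.34 and -0.21), whose levels carry the sum, were lower.

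Clustered histone genes, 66 in number, were higher in high-score cells by 2.89 with sIL-2, 2.55 with Trikine and 2.00 with sIL-2 + IL-21. *Foxm1* was at 26.7, 26.2 and 24.7 CPM in high-score cells of the 3 libraries and at 2.48, 3.56 and 4.50 CPM in the others. High-score cells passed the same limit on members in every library, so like levels of *Foxm1* there are in part set by this choice. *Ung*, also chosen after its values were seen, a replication-list gene that removes uracil from DNA, was the exception of its list and was lower in high-score cells in each library (-1.03, -1.35 and -1.14).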
